A study of Mus musculus with 15 samples.

Results

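The genes described here are 8 genes of Hedgehog signalling and of the base of the cilium, Ahi1, Ttc21b, Stk36, Gli2, Gli3, Ptch1, Smo and Sufu, out of 53700 genes counted in mouse oocytes. They were chosen by name. Ahi1, Ttc21b, Gli2 and Stk36 had been picked for a change between knockout and heterozygote in a line. The line was not stated and was taken to be the one where each gene differs, Padi6 for Ahi1, Ttc21b and Gli2 and Tle6 for Stk36. Those differences are given as descriptions with no test, and a test in the other line is independent of the choice only if that reading is right. The reading was itself made from these values, so not passing in the other line partly follows from it and is no support. Gli3, Ptch1, Smo and Sufu were included for their place in the pathway.

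Polyadenylated RNA was sequenced from germinal vesicle (GV) oocytes, the fully grown stage before meiosis resumes, in libraries of 15 oocytes. Padi6 knockout (KO, Padi6 -/-) oocytes on the FVB/N background gave 3 biological replicates and their heterozygote controls (het, Padi6 +/-) gave 3. Tle6 KO (Tle6 -/-) oocytes on C57BL/6J gave 4 biological replicates and Tle6 het (Tle6 +/-) oocytes gave 2, with technical libraries A and B for KO replicate 4 and for both het replicates. The controls of both lines thus carry 1 mutant allele, although sample names in brackets call them WT, and the line differs together with the strain. The labels name neither the deleted part of each gene nor the ages and animals. The tests therefore rest on the scatter of these libraries, which may be partly technical. Libraries of the Tle6 line are listed below as KO 1, 2, 3, 4 A and 4 B, and het 1 A, 1 B, 2 A and 2 B. Each value is an average over 15 oocytes, so a change in every oocyte and a larger change in a few cannot be told apart.

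Libraries held 30100177 to 74947533 counts in genes, and the targeted transcripts checked the labels. Padi6 averaged 22.4 ± 3.20 CPM (a gene's counts per 1000000 gene counts of the library, SD, n = 3) in Padi6 KO and 1670 ± 76.3 in Padi6 het. The transcript of Tle6 averaged 81.5 ± 16.2 CPM over 4 Tle6 KO replicates, against 443 ± 19.6 CPM over both Tle6 het replicates. That SD hides a gap between technical libraries, with het 2 A at 600 CPM and het 2 B at 234 CPM. Both lay above the highest Tle6 KO library, 4 A at 98.2 CPM. The 12 oocyte markers, among them Zp3, Gdf9 and Bmp15, were above 0 in every library and summed to 10567 to 20157 CPM. Markers of granulosa and cumulus cells, the follicle cells around the oocyte, summed to 46.2 to 77.9 CPM over 19 genes. Markers of motile ciliated cells summed to 26.0 to 54.1 CPM over 9 matched genes, and Pifo was at 0 in every library. Blood and immune markers summed to 0.614 to 2.63 CPM over 8 genes. Technical libraries A and B correlated across genes at r = 0.999 for Tle6 KO replicate 4 and Tle6 het replicate 1 but at 0.963 for Tle6 het replicate 2, so values of the Tle6 line are also given without a library of that replicate where this changes them.

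Hedgehog ligands are secreted proteins that bind the receptor PTCH1 and so release its hold on SMO, a membrane protein that then gathers in the primary cilium. SMO signals to the GLI transcription factors, which SUFU keeps inactive, and GLI2 acts mainly as activator and GLI3 mainly as repressor. AHI1 sits in the transition zone at the cilium's base and is mutated in Joubert syndrome, TTC21B is a subunit of the IFT-A complex that returns cargo from the tip of the cilium, and STK36, the relative of fly Fused, is needed in mice for the central pair of motile cilia. In the ovary, ligands made by granulosa cells are known to act on theca cells.

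The 300 bases around the start site of the 4 genes picked for change are shown, since these are the genes that differed in a line. They come from RefSeq on GRCm38.p6, run from 250 bases before the start to 50 after it, and are written 5′ to 3′ on the gene's own strand. Capitals mark GTTGCC in either orientation, the half-site of the RFX factors, which are known to drive ciliary genes. Ahi1 lies at chr10:20952297-20952596 (+), Ttc21b at chr2:66256568-66256867 (-), Gli2 at chr1:119053570-119053869 (-) and Stk36 at chr1:74601205-74601504 (+).
Ahi1: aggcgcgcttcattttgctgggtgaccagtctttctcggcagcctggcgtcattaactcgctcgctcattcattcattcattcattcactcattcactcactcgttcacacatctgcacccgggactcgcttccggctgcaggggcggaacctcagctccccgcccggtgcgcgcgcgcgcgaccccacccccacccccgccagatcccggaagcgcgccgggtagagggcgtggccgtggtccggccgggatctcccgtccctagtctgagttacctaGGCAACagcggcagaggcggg
Ttc21b: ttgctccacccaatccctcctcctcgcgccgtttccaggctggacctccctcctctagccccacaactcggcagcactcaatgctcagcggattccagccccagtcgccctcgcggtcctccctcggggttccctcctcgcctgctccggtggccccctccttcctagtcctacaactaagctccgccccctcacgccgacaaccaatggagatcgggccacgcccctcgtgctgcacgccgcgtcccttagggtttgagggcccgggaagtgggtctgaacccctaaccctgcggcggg
Gli2: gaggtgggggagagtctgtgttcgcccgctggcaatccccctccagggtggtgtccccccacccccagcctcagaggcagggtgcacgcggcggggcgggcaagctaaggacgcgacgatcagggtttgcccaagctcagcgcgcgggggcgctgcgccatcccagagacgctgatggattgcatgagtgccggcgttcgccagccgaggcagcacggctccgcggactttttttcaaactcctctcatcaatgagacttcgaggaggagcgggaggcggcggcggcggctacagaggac
Stk36: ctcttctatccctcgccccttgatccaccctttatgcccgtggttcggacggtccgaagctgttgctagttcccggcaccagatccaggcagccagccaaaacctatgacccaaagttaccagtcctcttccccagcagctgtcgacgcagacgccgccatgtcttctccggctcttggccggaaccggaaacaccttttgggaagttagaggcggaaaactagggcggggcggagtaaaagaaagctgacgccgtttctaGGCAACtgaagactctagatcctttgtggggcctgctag

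The half-site was found 29 bases after the upstream start of Ahi1 and 11 bases after the start of Stk36, on the opposite strand in both. It was found in neither Ttc21b nor Gli2, nor at a second, downstream start of Ahi1 whose sequence is not shown. It occurred in 2 of the 9 windows of the 8 genes, against 12.5% of 32851 windows in the table. The GLI motif GACCACCCA, searched on both strands, occurred in 0 of the 9 windows, including that of Ptch1, and in 0.253% of all windows. GC content was 65% for the upstream start of Ahi1, 67% for Ttc21b, 67.3% for Gli2 and 57% for Stk36, against a median of 52.7% over all windows. The downstream start of Ahi1 was at 37.3%. A motif match here is a description of letters, not of binding.

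**Figure D1:**
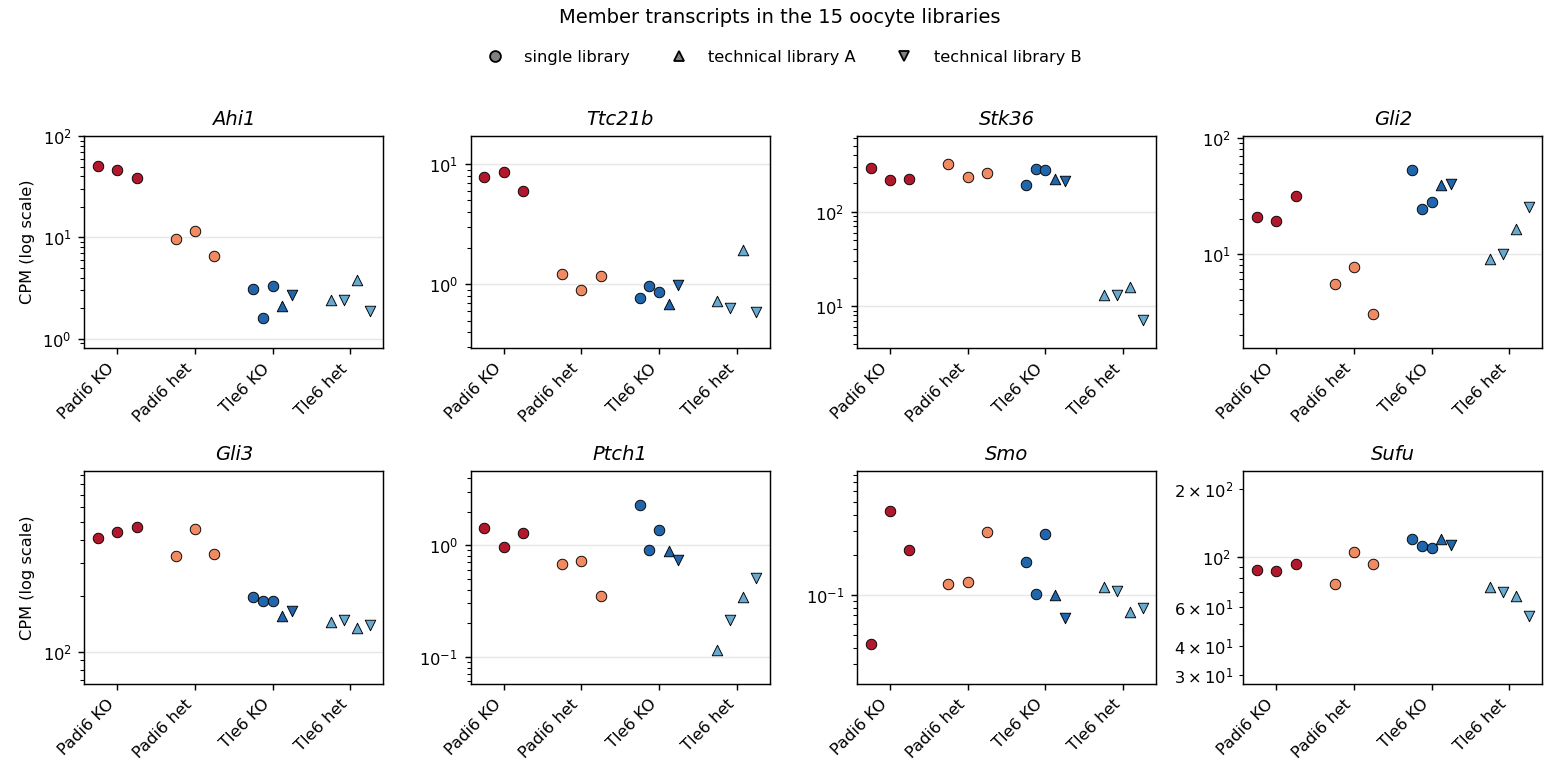
CPM of the 8 genes on log axes in each of the 15 libraries, by group, with circles for single libraries and triangles for technical libraries A (up) and B (down). Ahi1, Ttc21b and Gli2 stood higher in the 3 Padi6 KO libraries than in the 3 Padi6 het libraries, while Stk36 was low in the 4 Tle6 het libraries, at 7.17 to 15.8 CPM.

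At the base of the cilium, Ahi1 and Ttc21b stood several times higher in Padi6 KO oocytes. Ahi1 was at 50.5, 45.9 and 38.2 CPM in Padi6 KO replicates 1, 2 and 3, against 9.61, 11.6 and 6.50 CPM in Padi6 het replicates 1, 2 and 3. The groups did not overlap, and the log2 fold change of KO over het was 2.31 ± 0.20 (SE), a 4.94-fold difference. Ttc21b was at 7.85, 8.61 and 5.99 CPM in Padi6 KO, against 1.22, 0.894 and 1.18 CPM in Padi6 het. Every KO value was again above every het value, with a log2 fold change of 2.78 ± 0.23, or 6.88-fold. Such upward separation occurred in 11.7% of 18228 genes in the Padi6 line. Both genes were picked for their change, so nothing is read from their separation.

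In the Tle6 line, taken from these same values as not used to choose them, neither Ahi1 nor Ttc21b passed the test. Ahi1 was at 3.07, 1.60, 3.31, 2.10 and 2.72 CPM in the 5 Tle6 KO libraries, against 2.44, 2.43, 3.81 and 1.88 CPM in the 4 Tle6 het libraries. These ranges overlapped, and the log2 fold change was -0.10 with a 95% confidence interval of -0.94 to 0.74 (edgeR quasi-likelihood, Benjamini-Hochberg adjusted p = 0.910). Ttc21b was at 0.769, 0.961, 0.866, 0.693 and 0.997 CPM in the 5 Tle6 KO libraries, against 0.723, 0.642, 1.94 and 0.587 CPM in the 4 Tle6 het libraries. Het library 2 A stood above the other 8 libraries of the line. The log2 fold change of Ttc21b was -0.21, interval -1.08 to 0.66 (edgeR adjusted p = 0.803), and 0.16 without that library.

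With TMM-scaled library sizes Ahi1 averaged 42.6 ± 5.09 CPM in Padi6 KO, 8.60 ± 2.16 in Padi6 het, 2.62 ± 0.832 in Tle6 KO and 2.90 ± 0.180 in Tle6 het. Only the replicates of the Tle6 groups overlapped. Ttc21b was at 7.11 ± 1.19 CPM in Padi6 KO, and the replicates of Padi6 het (1.03 ± 0.192), Tle6 KO (0.858 ± 0.0504) and Tle6 het (1.02 ± 0.334) overlapped. The difference of the lines' effects, Tle6 minus Padi6, was -2.46 ± 0.38 for Ahi1 and -3.04 ± 0.39 for Ttc21b on the log2 scale, given with no test because it contains the contrast used for the choice.

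Other genes of these structures were examined in Padi6 KO, where 2.41% of all genes were called, a share at which few or none of so short a list would be. Of the 6 other IFT-A and associated genes, 0 passed edgeR's test, with a median log2 fold change of -0.13 and 1 unadjusted p under 0.05. They included Ift122 at -0.47 ± 0.16 (adjusted p = 0.144), Ift140 at -0.25, Wdr19 at -0.12 and Ift43 at 0.08. Of 22 other transition zone genes, 0 passed, with values of -0.50 to 0.74 and a median of -0.02, against a median of -0.01 over all 18228 genes tested. Tctn3, of the tectonic complex, had the highest value at 0.74 ± 0.24 (adjusted p = 0.133). In Tle6 KO 0 of the 6 IFT-A genes and 0 of the 22 transition zone genes passed, with 0 and 5 unadjusted p under 0.05, and medians of 0.16 and -0.16. Over all genes tested by edgeR, 3399 of 18228 in Padi6 and 3852 of 20276 in Tle6 had an unadjusted p under 0.05.

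Stk36 was the member with a difference in the Tle6 line. It was at 190, 286, 273, 219 and 211 CPM in the 5 Tle6 KO libraries, against 13.1, 13.2, 15.8 and 7.17 CPM in the 4 Tle6 het libraries. Every KO library was above every het library, and the log2 fold change was 4.21 ± 0.25, or 18.5-fold. It was 4.00 without library B of het replicate 2 and 4.34 without library A. Every KO replicate stood above every het replicate in 13.4% of 20276 genes in this line. Stk36 was picked for its change, so nothing is read from its separation.

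In the Padi6 line, taken from these same values as not used to choose it, the Stk36 transcript stood at 292, 215 and 223 CPM in Padi6 KO. It stood at 318, 234 and 257 CPM in Padi6 het. The groups overlapped, and the log2 fold change was -0.13, interval -0.45 to 0.18 (edgeR adjusted p = 0.675). With TMM scaling Stk36 averaged 231 ± 37.0 CPM in Padi6 KO, 253 ± 44.1 in Padi6 het, 243 ± 36.5 in Tle6 KO and 13.5 ± 2.04 in Tle6 het. The first 3 of these groups overlapped in their replicates, and Tle6 het alone stood apart. The line difference, Tle6 minus Padi6, was 4.30 ± 0.28 and is likewise a description.

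Of 8 other genes of the central apparatus, the structure that STK36 helps to build, 0 passed edgeR's test in either line, with 2 unadjusted p under 0.05 for Padi6 and 0 for Tle6. Kif27, a kinesin related to fly Costal2 and a partner of STK36, had a log2 fold change of -0.22 ± 0.47 in Tle6 (adjusted p = 0.834) and -0.71 ± 0.28 in Padi6 (adjusted p = 0.203). Markers of motile ciliated cells summed to 26.5 to 35.3 CPM in Tle6 KO and 26.6 to 32.8 CPM in Tle6 het replicates (two-sided exact permutation test, p = 0.533, smallest possible 0.067). They summed to 41.0 to 47.6 CPM in Padi6 KO and 47.9 to 54.1 in Padi6 het (exact p = 0.1, the smallest possible).

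**Figure D2:**
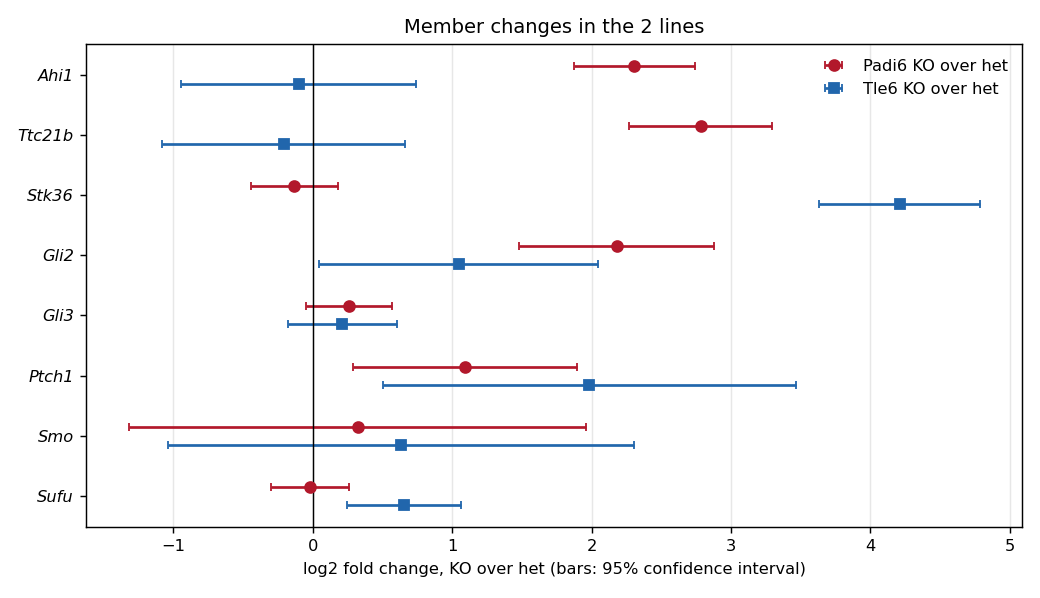
Log2 fold change of KO over het for each of the 8 genes in the Padi6 line (circles) and the Tle6 line (squares), with 95% confidence intervals from edgeR that are not adjusted for the number of genes. Ahi1 and Ttc21b were at 2.31 and 2.78 in the Padi6 line and near 0 in the Tle6 line, Stk36 was at 4.21 in the Tle6 line and -0.13 in the Padi6 line, and Ptch1 and Gli2 were above 0 in both lines.

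Among the transcription factors, Gli2 was higher in Padi6 KO and Gli3 did not pass the test. Gli2 was at 20.6, 19.4 and 31.4 CPM in Padi6 KO, against 5.44, 7.67 and 3.03 CPM in Padi6 het. The groups did not overlap and the log2 fold change was 2.18 ± 0.31, or 4.53-fold. Such upward separation occurred in 11.7% of genes in the Padi6 line, and Gli2 was picked for its change. Among Tle6 oocytes Gli2 was at 52.5, 24.6, 28.0, 39.3 and 39.9 CPM in the 5 KO libraries, against 8.95, 9.87, 16.3 and 25.3 CPM in the 4 het libraries. Het library 2 B reached into the KO range. The log2 fold change in that line was 1.05, interval 0.05 to 2.05, and did not pass over all genes (edgeR adjusted p = 0.245). Leaving out het replicate 1 gave 0.52, leaving out het replicate 2 gave 1.80, and leaving out het library 2 B gave 1.47. The difference of the lines' effects on Gli2, Tle6 minus Padi6, was -1.18 ± 0.57, interval -2.41 to 0.04. It is a description, as for Ahi1, and its interval reaches both signs.

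Gli3 was the more abundant factor. Scaled by exon length, it stood at 43.8 ± 3.82 CPM per kilobase in Padi6 KO, 36.5 ± 6.19 in Padi6 het, 19.3 ± 1.94 in Tle6 KO and 17.2 ± 0.289 in Tle6 het. Gli2 stood on the same scale at 3.31 ± 0.990, 0.728 ± 0.295, 5.38 ± 2.10 and 2.68 ± 1.60 in those groups, below Gli3 in each. In CPM, Gli3 was at 411, 440 and 470 in Padi6 KO against 327, 460 and 336 in Padi6 het, with overlap through het replicate 2 (log2 fold change 0.26, interval -0.05 to 0.57, edgeR adjusted p = 0.352). Across Tle6 libraries it was at 156 to 196 CPM in the KO libraries and 134 to 147 CPM in the het libraries (0.21, interval -0.18 to 0.60, adjusted p = 0.549), and the replicates overlapped once library sizes were TMM-scaled. The level in both Padi6 groups lay above that of both Tle6 groups with no overlap, which joins strain, line and any separate handling. Spike-in counts differed too, far lower in the Tle6 line and in Padi6 het 3 than in the other Padi6 libraries. The share of all genes that separate the lines in this way was not counted. The gap is therefore not read as particular to Gli3. Gli1, whose transcript is a standard target of the pathway, averaged 0.0345 CPM in Padi6 KO, 0.0116 in Padi6 het, 0.159 in Tle6 KO and 0.121 in Tle6 het. It was below the filter on low counts in the Padi6 line and had a log2 fold change of 0.45 ± 0.92 in the Tle6 line (adjusted p = 0.83).

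Sufu, the inhibitor of GLI, did not pass in the Padi6 line, at 87.3, 86.0 and 92.4 CPM in KO and 75.9, 105 and 92.8 CPM in het (log2 fold change -0.02, interval -0.30 to 0.26, edgeR adjusted p = 0.959). In Tle6 oocytes it was at 119, 111, 109, 120 and 113 CPM in the 5 KO libraries, against 73.4, 69.8, 66.6 and 54.6 CPM in the 4 het libraries. These ranges did not overlap, but the log2 fold change of 0.66 ± 0.18 did not pass (edgeR adjusted p = 0.107). Other runs were divided for Sufu in Tle6. The adjusted p was 0.0387 by DESeq2 and 0.0255 by edgeR with the spread shared by both lines. By edgeR it was 0.343 with the replicate block and 0.131 when low counts were kept. Every Tle6 KO replicate stood above every het replicate in 13.4% of the genes tested, so the separation is common in that line. The difference of the lines' effects for Sufu, Tle6 minus Padi6, was 0.63 ± 0.21 (edgeR adjusted p = 0.104). Alternative settings gave adjusted p of 0.0480, by DESeq2, to 0.182.

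At the membrane, Ptch1 was scarce and Smo near the floor. Ptch1, the receptor that is also a target of GLI, was at 1.41, 0.968 and 1.29 CPM in Padi6 KO, from 99, 59 and 59 counts, against 0.682, 0.728 and 0.348 CPM in Padi6 het, from 34, 35 and 21 counts. In Tle6 oocytes it was at 2.31, 0.910, 1.38, 0.891 and 0.731 CPM in the 5 KO libraries, against 0.114, 0.214, 0.344 and 0.507 CPM in the 4 het libraries. In both lines every KO library lay above every het library. The log2 fold change was 1.09 ± 0.36 in Padi6 (edgeR adjusted p = 0.142) and 1.98 ± 0.65 in Tle6 (adjusted p = 0.156), so neither passed edgeR's test as fitted per line. Other runs were divided for Ptch1 in Tle6. The adjusted p was 0.0472 with a shared spread and 0.0313 when low counts were kept, both by edgeR, and 0.0254 by DESeq2. By edgeR it was 0.379 with the replicate block, 0.203 without het library 2 A and 0.146 without 2 B. In Padi6 the shared spread gave 0.487. Every KO replicate stood above every het replicate in 11.7% of genes in the Padi6 line, and in both lines at once in 1.54% of 17628 genes. The difference of the lines' effects on Ptch1, Tle6 minus Padi6, did not pass at 0.85, interval -0.72 to 2.41 (edgeR adjusted p = 0.558).

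Because Ptch1 was separated in both lines, the mean of both lines' KO effects was tested in 1 fit over the 12 replicates, a choice made after these values were seen. It restates that observation on the same samples and is no independent support for it. The mean log2 fold change of Ptch1 was 1.52 ± 0.38 (edgeR adjusted p = 0.0455), in a contrast that called 3.19% of 21392 genes, 1.41% higher and 1.79% lower. Leaving out a replicate gave 1.23 to 2.02 with adjusted p of 0.0350 to 0.113, above 0.05 for 9 of the 12 replicates. Without het library 2 A it was 1.38 (adjusted p = 0.0757), and without 2 B it was 1.77 (0.0263). The same contrast gave 0.30 ± 0.10 for Sufu (adjusted p = 0.140), 0.22 ± 0.11 for Gli3 (0.296) and 0.46 ± 0.57 for Smo (0.713). The co-receptor gene Cdon was higher in the same contrast (0.74 ± 0.19, adjusted p = 0.0498).

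Theca and stroma markers, from cells in which Ptch1 is known as a Hedgehog target, had lower sums in Tle6 KO. They summed over 10 genes to 2.90 to 3.41 CPM in Tle6 KO replicates and 6.92 to 8.12 in Tle6 het (exact permutation p = 0.067, the smallest possible). Single genes of this list were often at 0. The theca enzyme gene Cyp17a1 and the collagen gene Col1a2 were at 0 in every Tle6 het library. Cyp17a1 was also at 0 in Tle6 KO 3 and 4 B, Padi6 het 1 and 2 and Padi6 KO 1 and 2. Col1a2 was also at 0 in Tle6 KO 2 and 4 B, Padi6 het 1 and 2 and Padi6 KO 2. In the Padi6 line the list summed to 3.97 to 5.78 CPM in KO and 5.51 to 6.4 in het (exact p = 0.4). Granulosa and cumulus markers summed to 46.2 to 55.0 CPM in Padi6 KO and 48.5 to 70.9 in Padi6 het (exact p = 0.6), and to 57.0 to 77.9 CPM in Tle6 KO and 56.4 to 66.9 in Tle6 het (exact p = 0.467). Their part in the Ptch1 and Gli2 values was not tested.

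Smo held 3, 26 and 10 counts in Padi6 KO libraries and 6, 6 and 18 in Padi6 het libraries, and 2 to 21 counts in Tle6 KO against 3 to 6 in Tle6 het. Its log2 fold changes of 0.32 (interval -1.32 to 1.96) in Padi6 and 0.63 (-1.04 to 2.30) in Tle6 leave a change of either sign within error (edgeR adjusted p = 0.865 and 0.683). No difference was detectable at this depth.

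**Figure D3:**
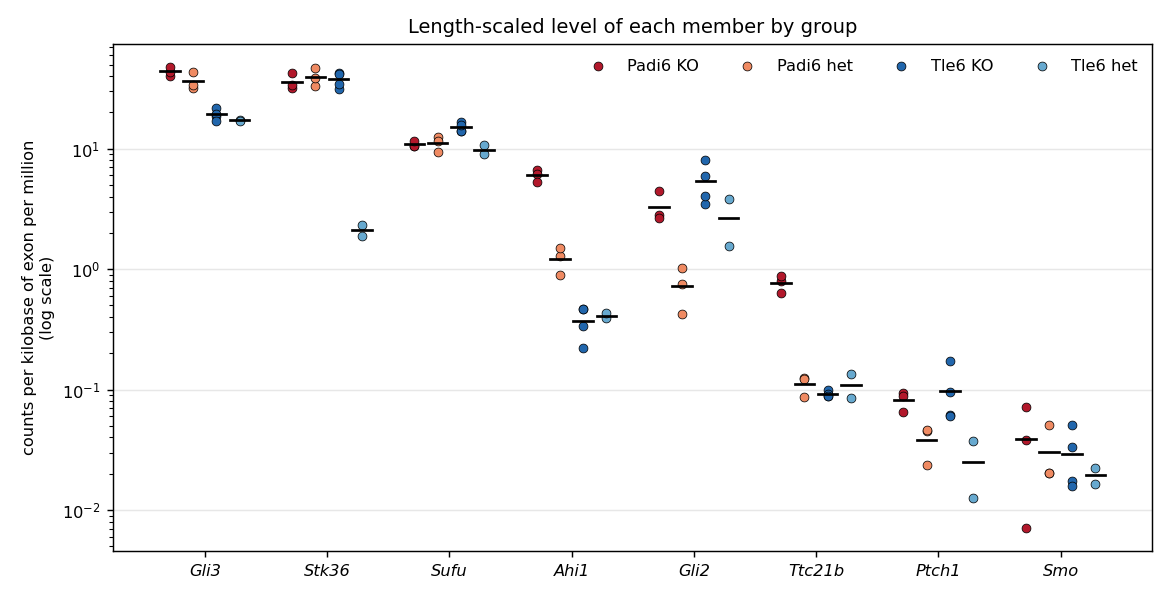
CPM per kilobase of merged exon length (TMM-scaled, log axis) of each gene in the 12 biological replicates, by group, with a bar at the group mean. Gli3, Stk36 and Sufu stood above Gli2, Ahi1, Ttc21b, Ptch1 and Smo in Padi6 KO, Padi6 het and Tle6 KO, and Stk36 fell among the middle genes at 2.10 in Tle6 het.

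By length-scaled level Smo was lowest in all 4 groups, at 0.0390, 0.0304, 0.0294 and 0.0195 CPM per kilobase in Padi6 KO, Padi6 het, Tle6 KO and Tle6 het, and overlapped Ptch1 in its replicates except in Tle6 KO, where Ttc21b stood between them. Stk36 stood at 35.9 ± 5.75 in Padi6 KO, 39.3 ± 6.86 in Padi6 het, 37.7 ± 5.66 in Tle6 KO and 2.10 ± 0.318 in Tle6 het. In Tle6 het it thus stood below Gli3 and Sufu and overlapped Gli2. Sufu kept to 9.85 ± 1.13 to 15.0 ± 1.23 over the groups.

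The calls among the 8 genes were 3 higher in Padi6 KO and 1 higher in Tle6 KO. Those genes were picked for these changes, so nothing is read from the counts. Over all genes, 1.69% of 18228 were called higher and 0.724% lower in the Padi6 line, and 0.587% of 20276 were called higher in Tle6 KO. The difference between the lines called 4.32% of 21392 genes, 1.31% higher and 3.01% lower. Of the 4 genes not picked, 0 passed edgeR in the Padi6 line, with 1 unadjusted p under 0.05 and 0 calls by DESeq2. For Tle6, 0 of the 4 passed, with 2 unadjusted p under 0.05 and 2 calls by DESeq2, which were Ptch1 and Sufu. Over all genes, 3399 of 18228 tested for Padi6 and 3852 of 20276 for Tle6 had an unadjusted p under 0.05. DESeq2 called 1322 genes for Padi6 and 1732 for Tle6. All 8 passed the filter on low counts in each comparison.

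Across the wider pathway, few genes passed the test. The lists held 85 genes besides the 8, of which 68 were tested for Padi6 and 71 for Tle6. In Padi6 KO 0 of 68 passed edgeR (13 unadjusted p under 0.05, 3 calls by DESeq2), with a median log2 fold change of -0.06 against -0.01 over all genes, of which 2.41% were called in either direction. Unadjusted p under 0.05 was common over all genes, at 3399 of 18228 for Padi6 and 3852 of 20276 for Tle6. DESeq2 called 1322 and 1732 genes in all. In Tle6 KO 1 of 71 passed, lower (12 unadjusted, 6 calls by DESeq2), with a median of 0.00 against 0.06, where 1.62% of all genes were called in either direction and 1.04% lower. That gene was Efcab7, whose protein tethers the EVC complex that relays SMO's signal. It was at 5.78, 6.96, 5.06, 7.56 and 7.11 CPM in the 5 Tle6 KO libraries, against 13.7, 14.0, 18.2 and 9.66 CPM in the 4 het libraries. The log2 fold change was -1.23 ± 0.24 (edgeR adjusted p = 0.0430), and the call was lost on leaving out any of the 6 replicates (0.0719 to 0.133) or either library of het replicate 2 (0.0666 without A and 0.0548 without B).

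Of the ligands, Shh averaged 2.53 ± 0.709 CPM in Padi6 KO, 2.59 ± 0.446 in Padi6 het, 2.37 ± 0.420 in Tle6 KO and 8.49 ± 6.45 in Tle6 het, where its 2 replicates were at 3.93 and 13.1 CPM. Its log2 fold change in the Tle6 line was -1.80 ± 0.43 (edgeR adjusted p = 0.0760). The ligand genes Ihh and Dhh were at or under 0.138 CPM on average in every group. Of 8 genes for ligands and their release, 4 were tested for Padi6 and 5 for Tle6, and 0 passed in either (2 and 1 unadjusted). Among the other genes of reception, 0 of 3 passed in Padi6 and 0 of 4 in Tle6 (1 unadjusted in each). The co-receptor gene Cdon was at 13.7 ± 4.85 CPM in Tle6 KO and 6.20 ± 0.868 in Tle6 het (log2 fold change 1.19 ± 0.34, adjusted p = 0.118), and at 10.1 ± 1.52 in Padi6 KO and 8.02 ± 0.751 in Padi6 het (0.33 ± 0.17, adjusted p = 0.338). For transduction, 0 of 12 other genes passed in Padi6 (0 unadjusted), with a median of -0.11, and Efcab7 was the 1 of 13 in Tle6. Of the target genes besides Ptch1, 0 of 2 and 0 of 3 passed (0 and 1 unadjusted). Of 12 basal body genes, 0 passed in either line (5 unadjusted in Padi6 and 1 in Tle6), with medians of -0.16 and -0.09.

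**Figure D4:**
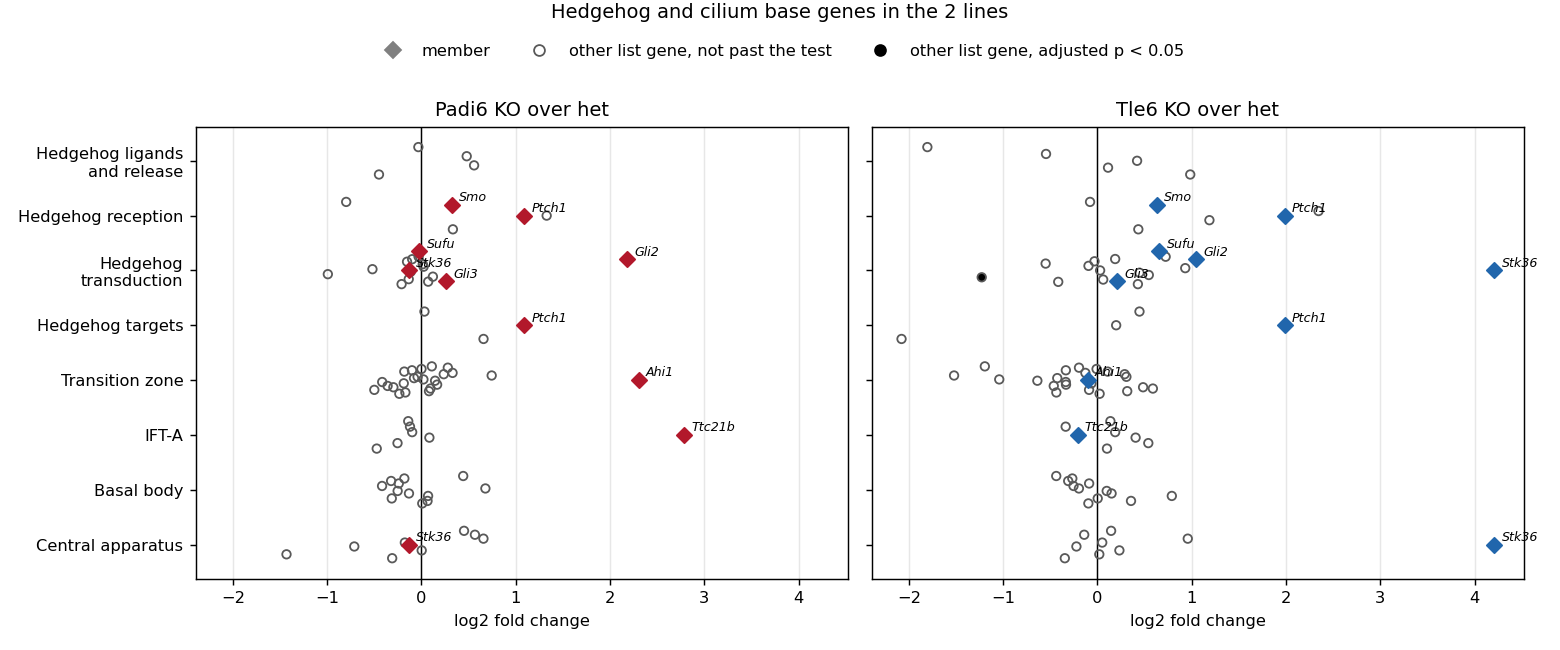
Log2 fold change of KO over het for the genes of 8 lists, Padi6 at left and Tle6 at right, with diamonds for the 8 genes of this account, open circles for other list genes and a filled circle for one past the test. The other IFT-A and transition zone genes lay between -0.50 and 0.74 in the Padi6 line, while Ttc21b and Ahi1 stood at 2.78 and 2.31.

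The nearest protein-coding genes on each side of the 8 loci were compared as well, 16 genes of which 15 were tested per line. In Padi6 KO, 2 of 15 were higher, where 1.69% of all genes were, and 13 did not pass, with a median of -0.15. Both lay beside picked genes. Myb, a transcription factor gene known from blood progenitors and next to Ahi1 on chromosome 10, was at 1.78, 2.46 and 1.84 CPM in Padi6 KO (125, 150 and 84 counts), against 0.421, 0.125 and 0.298 CPM in Padi6 het (21, 6 and 18 counts). It was higher by 2.85 ± 0.41 on the log2 scale (edgeR adjusted p = 0.0121, but 0.0653 without het replicate 3 and 0.174 with a shared spread). On the other side of Ahi1, the phosphodiesterase gene Pde7b was at 3.06, 1.77 and 1.82 CPM in Padi6 KO and 1.00, 0.499 and 0.879 CPM in Padi6 het (1.49 ± 0.34, adjusted p = 0.0535). Tfcp2l1, a transcription factor gene beside Gli2 on chromosome 1, was at 12.3, 15.0 and 12.9 CPM in Padi6 KO and 7.46, 7.07 and 7.89 CPM in Padi6 het (0.87 ± 0.15, adjusted p = 0.0227, and 0.0522 to 0.0994 without any replicate other than KO replicate 1).

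In Tle6 KO, Pde7b was lower, at 0.220 to 0.523 CPM in the KO libraries against 0.933 to 3.02 CPM in the het libraries (log2 fold change -2.66 ± 0.42, edgeR adjusted p = 0.0219). The call was lost without het replicate 1 (0.0541), het 2 (0.115), KO 3 (0.0625) or KO 4 (0.0617), without het library 2 B (0.125) and with A libraries alone (0.116). The difference between the lines for Pde7b, Tle6 minus Padi6, was -4.20 (adjusted p = 0.00115), and it passed in each alternative run, at -4.59 to -3.49. Ahi1 itself did not pass in the Tle6 line. The other 14 neighbours tested there did not pass. Beside Stk36, Rnf25 lies on the opposite strand and was at 55.8, 59.8, 45.8, 91.8 and 80.1 CPM in Tle6 KO against 40.05, 35.3, 40.2 and 14.0 CPM in Tle6 het (0.88 ± 0.31, adjusted p = 0.178), and Ttll4, on the same strand, had a value of -0.42 ± 0.18 (adjusted p = 0.254). Beside Ttc21b in Padi6 KO, Galnt3 had 0.10 ± 0.14 (adjusted p = 0.774) and Scn1a was too low to test. None of these protein-coding neighbours overlaps a member's span in the annotation. On the opposite strand within Ahi1, the noncoding gene Gm20149 was at 0.470 CPM in Padi6 KO and 0.115 in Padi6 het (log2 fold change 2.03, adjusted p = 0.0468), and without a stated strand setting its reads cannot be told apart from those of Ahi1.

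**Figure D5:**
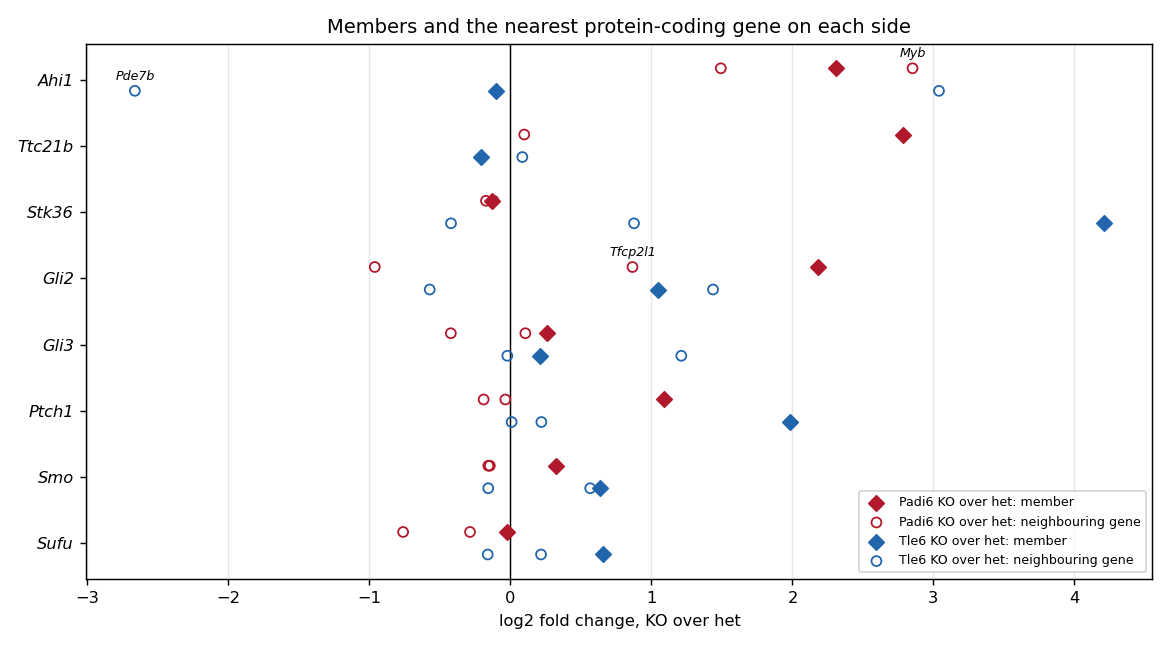
Log2 fold change of KO over het for each of the 8 genes (diamonds) and its nearest protein-coding gene on either side (open circles) in both lines, with the name of each neighbour past the test. Ahi1 and its neighbours lay at 1.49 to 2.85 in the Padi6 line, whereas the neighbours of Ttc21b and Stk36 lay near 0 there.

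Genes whose profile over the 12 biological replicates was most like a picked gene were named by Pearson's r of log2 CPM, as a description over replicates that share group and library. For Ahi1 they were Tspan1 (r = 0.968), Stard4 (0.960) and Trim6 (0.955), and for Ttc21b they were Gtsf2 (0.947), Ebf2 (0.926) and Tspan1 (0.915). Trim6 averaged 33.2 CPM in Padi6 KO, 10.3 in Padi6 het, 5.99 in Tle6 KO and 5.61 in Tle6 het. For Stk36 they were D5Ertd577e (0.987), Rnps1 (0.975) and Plcl1 (0.972), each lowest in Tle6 het. In Padi6 KO, Padi6 het, Tle6 KO and Tle6 het, D5Ertd577e averaged 44.1, 48.2, 44.1 and 0.216 CPM. In the same order Rnps1 averaged 11.1, 11.8, 12.9 and 4.44 CPM, and Plcl1 averaged 10.6, 15.6, 13.5 and 0.0563 CPM. For Gli2 they were Themis (0.924), Seh1l (0.903) and Ceacam10 (0.897). Between the picked genes themselves, Ahi1 and Ttc21b correlated at r = 0.899, while Gli2 had r = -0.147 with Ahi1 and 0.117 with Ttc21b. The highest mean of Gli2 was 37.0 ± 14.5 CPM in Tle6 KO, before 22.7 ± 6.80 in Padi6 KO, 18.4 ± 11.0 in Tle6 het and 5.0 ± 2.03 in Padi6 het. Replicates overlapped between neighbours in this order except between Tle6 het and Padi6 het.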

How the data were processed

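The authors deposited 1 table of unnormalised gene counts for each library. The submitters' processing notes name bcl2fastq 2.20.0.422, cutadapt 2.8, STAR 2.7.8a, HTSeq 2.0.2 and mm39; no source used here gives the annotation release or strand setting. Library sizes and tests left out 92 spike-ins and 5 summary lines. Spike-ins held 7116, 7053 and 40 counts in Padi6 het 1, 2 and 3. They held 13772, 4413 and 4009 in Padi6 KO 1, 2 and 3, and 5 to 45 in the Tle6 libraries. What this difference did to the results was not tested. Reads outside genes were 5.39 to 7.29% of a table, in overlapping genes 3.85 to 4.20% and with several alignments 12.1 to 14.5%. Symbols, exon lengths and gene order came from GENCODE M21 (GRCm38), which matched 52147 identifiers and left 1553 unmatched, and because builds differ no count is placed at a coordinate. Of the list symbols 2 had no match, Tctn2 and Dnai1.

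Libraries A and B of a replicate were added. Each line was tested by edgeR 4.0.16 (R 4.3.3, filterByExpr, TMM, robust glmQLFit, two-sided glmQLFTest), and p-values were adjusted by Benjamini-Hochberg over every gene in the fit (threshold 0.05). The difference of the lines' effects was a contrast over all 12 replicates. The procedure was run on simulated data with less spread than the Tle6 line has and with no changes in the scarcest genes. That run therefore does not cover the noise of that line or genes as scarce as Smo. Per-library CPM use gene-count totals; group means use TMM-scaled sizes over 12 replicates. Likeness took the 3 highest r among protein-coding named genes at 5 CPM or more, log2 CPM with a prior count of 2. Named genes were the 8, list genes past the test, neighbours, likeness genes and targets; Shh, Cdon, Gli1, Ihh, Dhh, Kif27, Tctn3, Gm20149 and the IFT-A genes were added after their values were seen. The members, lists and tests were chosen with earlier results of these data known. Alternatives were RLE scaling, no filter, DESeq2 1.42.0, a shared spread, a replicate block, choices of technical library and each replicate left out.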

Additional observations from a re-analysis of the deposited data

Results flagged for a closer look

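The effects of the 2 knockouts differed in 7 of the genes examined, by the contrast of Tle6 KO over het minus Padi6 KO over het in edgeR. That contrast called 4.32% of 21392 genes. Several of the 7 were picked or named for their values in these data, so nothing is read from the count. For 3 of the 7, Stk36 at 4.30, Ttc21b at -3.04 and Ahi1 at -2.46 on the log2 scale, the contrast holds the comparison they were picked on, so the difference is a description. The other 4 are not among the 8 genes. Efcab7 was named because it passed a test in these data, Tctn3 after its values were seen, and Pde7b and Tfcp2l1 as neighbours. Efcab7, which tethers the EVC complex, differed by -1.39 ± 0.32 (edgeR adjusted p = 0.0294, and 0.0190 to 0.0838 with a replicate left out), with effects of -1.23 for Tle6 and 0.12 for Padi6. Tctn3, a transition zone gene, differed by -2.31 ± 0.54 (adjusted p = 0.0312), with effects of -1.52 for Tle6 and 0.74 for Padi6. Its level in Tle6 het replicate 2 was 2.75 CPM by library A but 10.7 CPM by library B, and without library B the difference was -1.47 (adjusted p = 0.259). Pde7b, beside Ahi1, differed by -4.20 (adjusted p = 0.00115), with effects of -2.66 for Tle6 and 1.49 for Padi6. Tfcp2l1, beside Gli2, differed by -1.48 (adjusted p = 0.00597, but 0.0765 without library B), with effects of -0.57 for Tle6 and 0.87 for Padi6. In the 4 Tle6 KO replicates no sample of any of the 8 genes stood apart by Dixon's criterion.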

How the results depend on the processing

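The members called, 3 in Padi6, 1 in Tle6 and 3 in the difference between the lines, were picked for these changes, so that their counts also held without any one replicate is no support. The difference called 4 members with DESeq2 and 4 with no filter. In Tle6 the count was 2 with no filter on low counts, by Ptch1, and 3 with DESeq2 and 3 with a shared spread, by Ptch1 and Sufu. The count of other pathway genes, 0 in Padi6, was 3 with no filter, 3 with DESeq2 and 3 with the replicate block. In Tle6 it was 1, against 8 with no filter, 6 with DESeq2, 9 with a shared spread, 0 with the replicate block, 0 without library A or B of het replicate 2, 0 with A or B libraries alone, and 0 to 1 without a replicate. Calls over all genes ranged from 60 to 1625 in Padi6 (440 as reported), from 57 to 2061 in Tle6 (329) and from 382 to 2078 in the difference (924). Without a replicate they were 61 to 258, 119 to 292 and 406 to 1465.

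Deviations of same-numbered KO and het samples correlated at 0.0479 to 0.154 in Padi6 and 0.0537 to 0.113 in Tle6. Not every pair was over 0.1 in Padi6 and Tle6 has only 2 pairs, so the numbers were not taken as pairs. By the same correlations, 5 of 6 Padi6 and 3 of 4 Tle6 samples correlated best with their own number. Each pair counts from both sides, and the deviations of the 2 Tle6 het replicates mirror each other. These counts therefore cannot decide whether the numbers are pairs. With the replicate block, Pde7b in Tle6 did not pass (adjusted p = 0.186), and 859 genes were called in Padi6 and 57 in Tle6.

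Of 624 single-gene values recomputed, 528 kept direction and call, 53 lost and 20 gained a call and 23 changed sign, 0 of them among called values. Values that changed sign without a replicate ran, in Padi6, from -0.26 to 0.0015 for Stk36, -0.14 to 0.084 for Sufu, -0.54 to 0.92 for Smo and -0.017 to 0.35 for Efcab7, in Tle6 from -0.24 to 0.090 for Ahi1 and -0.53 to 0.13 for Ttc21b, and in the difference from -0.34 to 1.10 for Smo and -0.65 to 1.76 for Myb. Without library A of Tle6 het replicate 2, Ahi1 was 0.016, Ttc21b 0.16 and the Myb difference -0.13. With B libraries alone Ahi1 was 0.083 and Ttc21b 0.29. Without library B the Gli3 difference was 0.048, and with the block the Myb difference was -0.41. The cause was not tested. Low counts limit Smo, Ptch1 and Myb.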

Other observations

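Within Tle6 het replicate 2, libraries A and B differed for several of the genes although they are technical. Library A over library B was 2.02 for Ahi1, 3.30 for Ttc21b and 2.21 for Stk36, and library B over library A was 1.55 for Gli2. In Tle6 KO replicate 4 the same A over B ratios were 0.770, 0.695 and 1.04, and B over A was 1.01 for Gli2.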
